A study of Mus musculus with 7 samples.

Results

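The TGF-beta genes described here are 9 genes that encode the 3 TGF-beta ligands (Tgfb1, Tgfb2, Tgfb3), a latency protein (Ltbp1), the signalling receptors (Tgfbr1, Tgfbr2), the transducer Smad3 and the inhibitors Smad7 and Skil. JUNB binding near them was read from peak lists of CUT&RUN, in which a nuclease tethered to an antibody cuts out the DNA around the bound protein. Overlapping peaks of the 4 JUNB lists were joined into 12655 regions. A region was given to the mm10 RefSeq protein-coding gene with the nearest end, if that end lay within 100 kb of the region's median summit. By this rule 32 regions belonged to 5 of the 9 genes, and the other 4 genes had none.

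The libraries came from the line iMGT-Myh6-eGFP-MEF, mouse embryonic fibroblasts in which doxycycline switches on the cardiac factors Mef2c, Gata4 and Tbx5 (MGT) and in which eGFP reports Myh6. The 2 siChst7 libraries are from cells given an siRNA against Chst7, which encodes a chondroitin sulfotransferase, and the 2 siControl libraries from cells given a control siRNA. Both groups received 1 µg/mL doxycycline on the day after transfection and were harvested and frozen at day 1 of MGT expression. The protocol text of the labels names siJunb and siH1f0 where the titles name siChst7. The labels give biological replicate numbers and do not say whether the line is a single clone or whether cultures were separate, so the spread between replicates may be technical. The fibroblast label cannot be checked from peak lists, and the 3 IgG libraries were not analysed here.

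TGF-beta ligands are secreted in a latent complex with their own propeptide and an LTBP, which anchors the complex in the matrix. Active ligand brings the type II and type I receptor kinases together, and the type I receptor phosphorylates Smad2 and Smad3, which enter the nucleus with Smad4. Smad complexes often act at DNA beside AP-1, the dimeric factor of which JUNB is a subunit, and in fibroblasts the pathway drives matrix production and the myofibroblast state. Smad7 blocks the receptor and Skil (SnoN) represses Smad complexes, so both close a negative feedback.

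The lists held 10163 and 4735 peaks for siChst7 and 6469 and 5827 peaks for siControl, and each ends at a −log10 q near 2. Each library is labelled with 30 M reads, and the reads behind each list could not be counted from these files. Fold enrichments are the authors' values for single peaks. They are given with their percentile within their own list. Both place a peak within its list, and because the lists differ in length a difference in them between libraries shows no change.

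Regions near the TGF-beta genes were unevenly spread. Smad3 had 15 regions, Smad7 7, Tgfb2 5, Ltbp1 3 and Tgfbr2 2, while Tgfb1, Tgfb3, Tgfbr1 and Skil had 0 in each of the 4 lists. Thus 5 of 9 genes had a region in any list, where 25.1% of all 21900 protein-coding genes did. In both siChst7 lists 3 genes (Tgfb2, Smad3 and Smad7) had a region, with a background of 11.3% of all genes, and the same 3 genes had one in both siControl lists, with a background of 11% of all genes. These 3 also had a region common to all 4 lists, as did 8.32% of all genes. The counts were not adjusted for the length of genome nearest to a gene, which had a median of 46.4 kb over all genes. This length was 210 kb for Smad3, 192.6 kb for Tgfb2, 86.4 kb for Smad7, 292.6 kb for Ltbp1 and 193.4 kb for Tgfbr2.

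**Figure D1:**
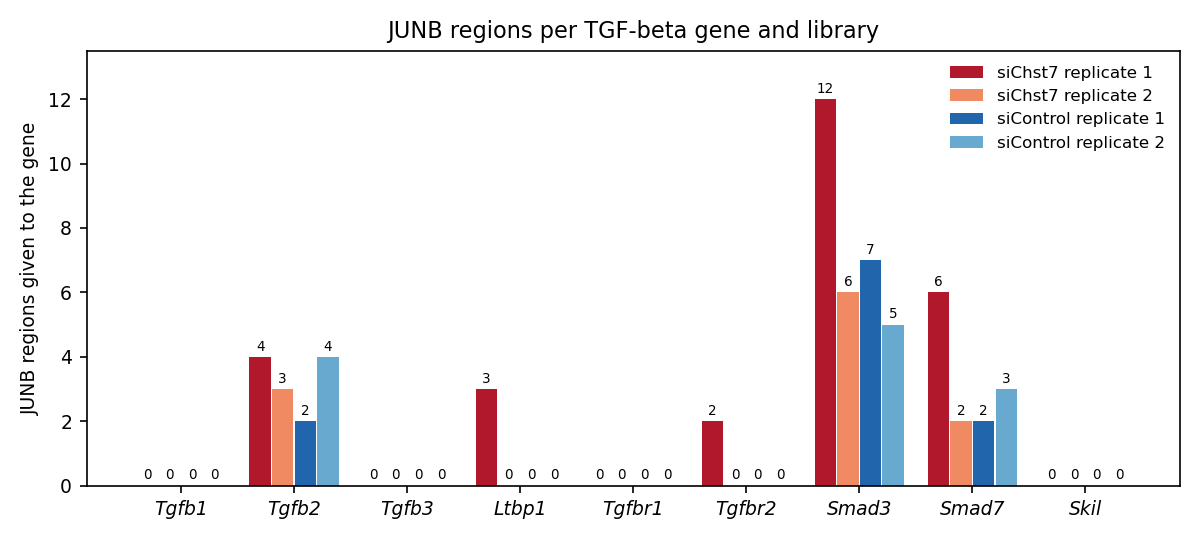
Number of JUNB regions given to each of the 9 TGF-beta genes (vertical axis, regions) in the siChst7 and siControl libraries (bars, 1 for each library). Smad3 had 12 and 6 regions in siChst7 and 7 and 5 in siControl, and 4 genes had 0 in every list.

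Among the ligand genes, Tgfb2 was the one with JUNB regions. Tgfb2 (chr1:186622787-186709697), the ligand needed for heart and cushion development in mice, lies on the minus strand by its RefSeq start site. All 5 of its regions lay outside the gene, beyond its 3′ end, at 12.5 to 54.3 kb from that end. A common region at chr1:186585766-186587709, 35.8 kb past the 3′ end, had folds of 16.6 and 10.5 in siChst7 and 9.3 and 7.6 in siControl. A second at chr1:186580805-186582512, 40.7 kb past the 3′ end, had folds of 13.6 and 7.5 in siChst7 and 6.8 and 17.8 in siControl. Their median summits were 5.0 kb apart. The first stood at the 95.5 and 86.1 percentile of the siChst7 lists and the 77.1 and 65.9 percentile of the siControl lists, so it was among the upper peaks of all 4. For the second, the highest and lowest percentiles were both in siControl, 97.8 and 49.9.

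A further Tgfb2 region, at chr1:186568290-186568761 and 54.3 kb past the 3′ end, was listed in both siChst7 libraries, with folds of 7.3 and 5.7, and in neither siControl library. It was the 1 siChst7-only region of the 9 genes, 3.12% of their 32 regions, where 3.88% of all regions were siChst7-only. Its peaks covered 472 and 216 bp and stood at the 59.8 and 30.4 percentile of their lists. With 50% reciprocal overlap, and with summit windows, the 2 peaks no longer joined. Neither of the other 2 Tgfb2 regions was in both libraries of a group. A region 12.5 kb past the 3′ end was in siChst7 replicate 1 and siControl replicate 2, with folds of 11.8 and 7.7, and a region 38.4 kb past it was in siControl replicate 2 alone, with a fold of 4.2.

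Tgfb1 (chr7:25687002-25705077), the main ligand of fibrosis, and Tgfb3 (chr12:86056743-86079041) owned no region, and both stand in crowded surroundings. The genome nearest to Tgfb1 measured 21.3 kb and that nearest to Tgfb3 25.5 kb. For Tgfbr1 and Skil, which owned no region either, it measured 109.2 and 62.5 kb, above the median of 46.4 kb over all genes. Whether this length bears on the lack of regions was not tested. Regions within 100 kb of Tgfb1 and Tgfb3 went to nearer neighbours. Around Tgfb1 there were 3, of which the closest, 6.8 kb from Tgfb1 and 0.8 kb from Ccdc97, was in siChst7 replicate 1 alone. A region in all 4 lists lay 79.0 kb from Tgfb1 and 4.8 kb from Axl, a receptor tyrosine kinase gene, with folds of 15.0 and 13.2 in siChst7 and 9.9 and 5.7 in siControl. Around Tgfb3 there were 5, and the 1 in all 4 lists lay 96.9 kb away, with folds of 14.2 and 13.0 in siChst7 and 9.4 and 9.0 in siControl.

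Ltbp1 (chr17:75005480-75392512) binds latent TGF-beta and ties it to the extracellular matrix. By the 100 kb rule it had 3 regions in siChst7 replicate 1 and 0 in the other 3 lists. They had folds of 5.8, 8.1 and 4.4, at the 35.3, 67.8 and 6.1 percentile of that list. The gene spans 387 kb, so much of its body is over 100 kb from either end, and 10 more regions stood there, 5 of them in all 4 lists. Of these 10, 8 and 5 were listed in siChst7 replicates 1 and 2 and 8 and 7 in siControl replicates 1 and 2.

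The region at chr17:75110188-75111727, inside Ltbp1 and 105.4 kb from its nearer end, had the highest folds of any region at these genes. They were 32.7 and 25.8 in siChst7 and 38.6 and 27.1 in siControl, at the 99.6, 99.4, 99.9 and 99.5 percentile of the 4 lists. Its neighbour at chr17:75105504-75106490 had 20.8 and 14.3 in siChst7 and 14.3 and 12.6 in siControl. That one lies 100.4 kb from the gene end, just outside the rule, while the farthest region inside the rule lies 81.4 kb from Smad3. The remaining 3 common regions inside Ltbp1 stood together, 133.8 to 141.6 kb from the upper gene end, with folds between 5.9 and 18.8. Tgfb2 likewise was the nearest gene to 3 regions of all 4 lists at 106.4, 167.7 and 173.6 kb past its 3′ end, with folds of 7.1 to 23.0. With no limit on distance, the common regions of the 9 genes came to 15 instead of 7.

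**Figure D2:**
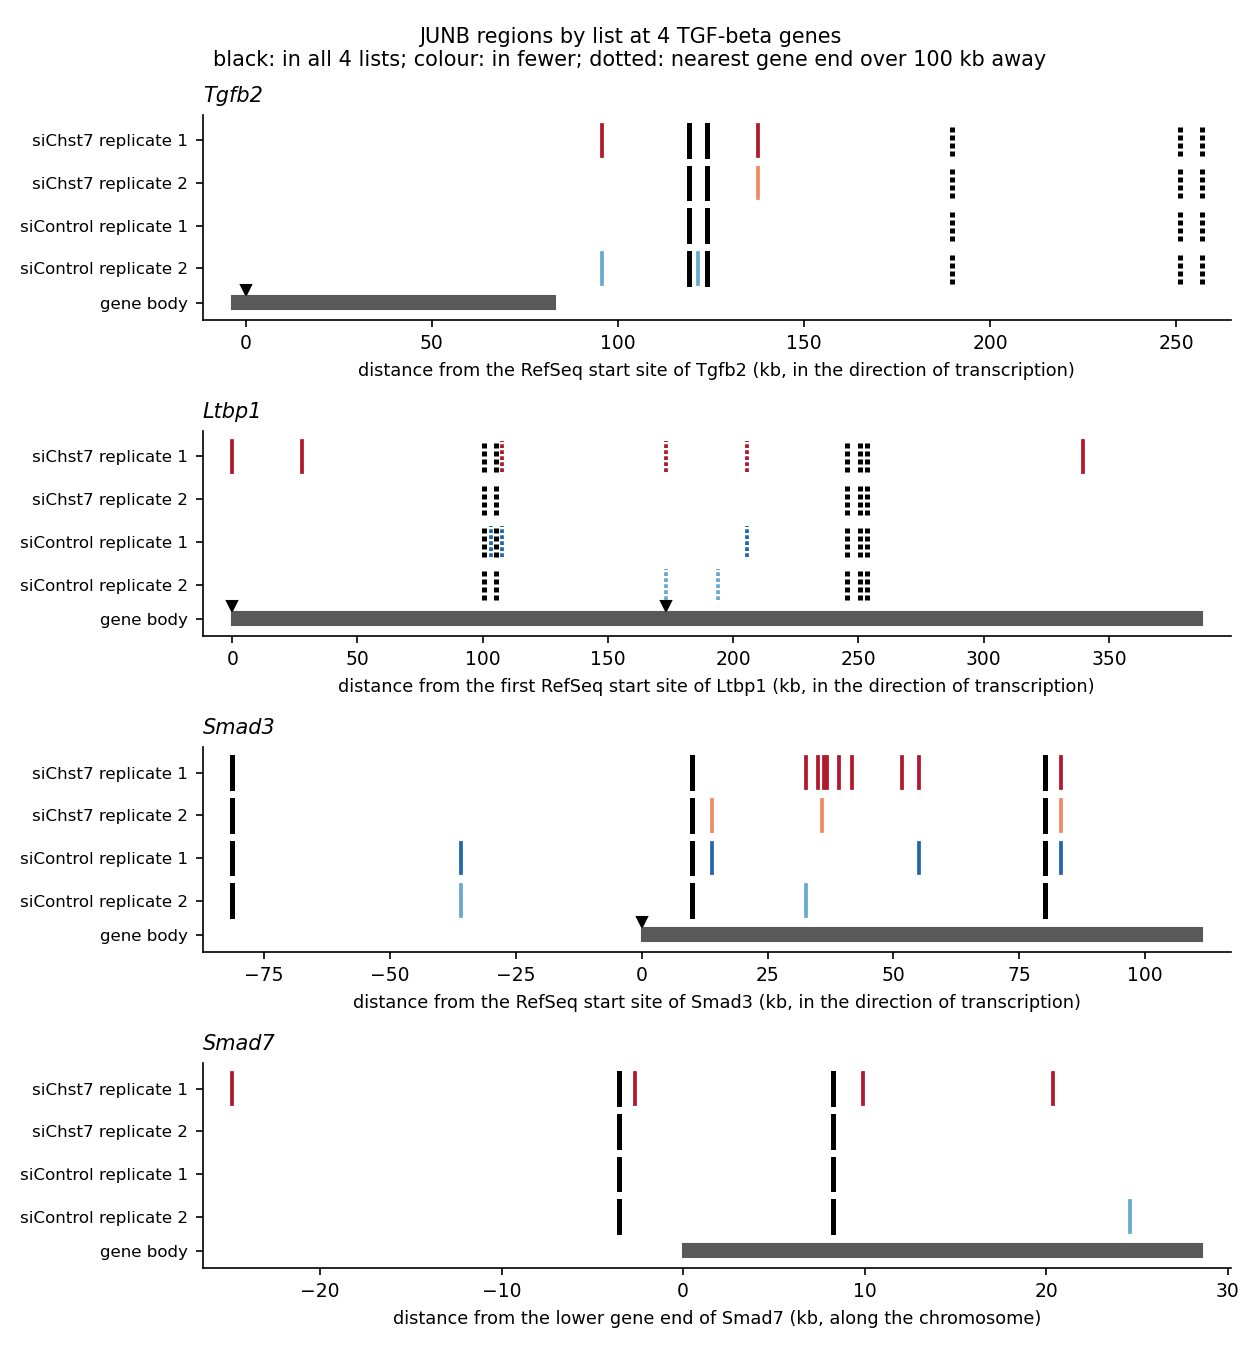
Positions of JUNB regions (vertical ticks, 1 row for each library, siChst7 above siControl) at Tgfb2, Ltbp1, Smad3 and Smad7, with the gene body as a grey bar and RefSeq start sites as triangles. The horizontal axis gives kb from the start site in the direction of transcription, or, for Smad7, kb from its lower gene end. Black ticks are regions of all 4 lists, and dotted ticks lie over 100 kb from a gene end. In Ltbp1 the 5 black ticks are all dotted.

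Start sites came from the RefSeq promoter windows of GRCm38.p6, the assembly of mm10, which run from 250 bases before a start site to 50 after it. Of the 9 genes 6 matched, with 8 windows. Tgfb3, Smad7 and Skil had no entry. A JUNB region of any list overlapped 3 of the 8 windows, where 4.06% of all 32851 windows had one, and 2 of the 3 rested on siChst7 replicate 1 alone. The 3 windows are those of Tgfbr2 and of the first and inner start sites of Ltbp1. The region at the inner one lies 173.1 kb from the nearest gene end, so the 100 kb rule leaves it out. The 250 bases before the 3 start sites are shown because they are the places where JUNB peaks reached the promoter of a TGF-beta gene. Capitals mark bases inside the peak of every list that has the region, and each sequence runs 5′ to 3′ on the gene's own strand.

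Ltbp1, first start site, chr17:75005279-75005528, plus strand: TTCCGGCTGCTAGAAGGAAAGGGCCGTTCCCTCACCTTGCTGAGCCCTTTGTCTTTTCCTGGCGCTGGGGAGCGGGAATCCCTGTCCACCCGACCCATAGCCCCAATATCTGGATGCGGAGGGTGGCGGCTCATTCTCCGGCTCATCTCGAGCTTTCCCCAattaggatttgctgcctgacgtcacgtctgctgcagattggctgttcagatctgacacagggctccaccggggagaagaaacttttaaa

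Ltbp1, inner start site, chr17:75178531-75178780, plus strand: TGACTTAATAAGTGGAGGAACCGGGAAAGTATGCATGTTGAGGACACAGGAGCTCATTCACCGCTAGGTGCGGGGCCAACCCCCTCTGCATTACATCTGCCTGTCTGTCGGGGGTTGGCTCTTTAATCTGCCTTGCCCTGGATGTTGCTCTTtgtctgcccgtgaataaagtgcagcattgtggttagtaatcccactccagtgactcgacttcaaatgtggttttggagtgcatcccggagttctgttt

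Tgfbr2, chr9:116175364-116175613, minus strand: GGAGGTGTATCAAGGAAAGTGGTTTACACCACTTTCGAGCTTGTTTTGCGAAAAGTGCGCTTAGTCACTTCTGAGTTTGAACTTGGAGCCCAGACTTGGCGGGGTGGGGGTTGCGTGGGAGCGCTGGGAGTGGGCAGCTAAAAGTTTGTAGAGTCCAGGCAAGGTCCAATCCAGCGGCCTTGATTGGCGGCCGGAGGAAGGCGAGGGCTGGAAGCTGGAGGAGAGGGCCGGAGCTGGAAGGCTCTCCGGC

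At the first Ltbp1 start site the peak of siChst7 replicate 1 (chr17:75005234-75005439, fold 5.8) covered 161 of the 250 bases, and its summit lay 186 bases before the start. At the inner start site, which opens the shorter Ltbp1 transcripts, siChst7 replicate 1 and siControl replicate 2 had a region with folds of 6.3 and 8.1, at the 46.0 and 70.9 percentile of their lists. There 152 bases were inside both peaks, and the median summit lay at −187 bases from the start. The Tgfbr2 peak covered all 250 bases.

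The AP-1 site TGAGTCA, searched on both strands, occurred in 0 of the 8 windows and in 5.2% of all windows. The TEAD motif GGAATG also occurred in 0, against 14.7% of all windows. GGCGCC, a GC-rich Smad type motif, occurred in 1, at Tgfbr1 (11.9% of all windows). AGATAA, letters bound by factors of the GATA family, occurred in 1 window, at Tgfb2 (11.2%). In the first Ltbp1 window the letters TGACGTC, a CRE type motif that AP-1 and ATF dimers can bind, began 73 bases before the start on the plus strand and again, overlapping, on the minus strand. They were searched after the sequence had been read. They lie outside the capitals, at chr17:75005456-75005463, and 3.21% of all windows hold them. A match is a description and not a bound site.

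The receptor genes had few regions. Tgfbr2 (chr9:116087695-116175363) encodes the type II receptor, which binds ligand first. It had 2 regions in siChst7 replicate 1 and 0 in the other lists. One, at chr9:116175359-116175763, had its summit 302 bp before the start site and a fold of 4.9, and the other, inside the gene at chr9:116153105-116153374, had a fold of 5.1. Both stood low in their list, at the 16.9 and 19.1 percentile. Tgfbr1 (chr4:47353222-47414926), the type I receptor that phosphorylates Smads, had none. The closest region of all 4 lists, 42.4 kb from Tgfbr1 and 2.3 kb from the collagen gene Col15a1, had folds of 6.3 and 5.7 in siChst7 and 5.8 and 7.5 in siControl. Another of all 4 lists, given to Sec61b, lay 90.2 kb from Tgfbr1 and had folds of 22.5 and 15.3 in siChst7 and 10.7 and 8.7 in siControl.

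Smad3 (chr9:63646766-63757994), the receptor-activated Smad that binds DNA directly, held the most regions of the 9 genes. Of its 15 regions 13 lay inside the gene, 3 were common to all 4 lists, 1 was in 3 lists, 4 were in 2 and 7 in 1. Having 3 or more common regions was shared by 0.584% of all protein-coding genes. The 3 were also read under 50% reciprocal overlap, summit windows and equal list length. Only chr9:63677407-63678739, 31.2 kb from a gene end, stayed in 4 lists in all of these. The region at 10.0 kb fell to 3 lists with summit windows. The region at 81.4 kb fell to 3 with reciprocal overlap and 2 at equal list length. The common region at chr9:63677407-63678739, inside the gene and 80.0 kb after the start site, had folds of 15.3 and 14.3 in siChst7 and 5.9 and 8.1 in siControl. These were the 94.1 and 94.9 percentile of the siChst7 lists and the 33.3 and 72.1 percentile of the siControl lists, so the peak was high in both siChst7 lists and in the lower part of 1 siControl list. A region 3.2 kb further on, at chr9:63674550-63675240, was listed with folds of 11.7 and 7.8 in siChst7 and 5.3 in siControl replicate 1.

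Another common Smad3 region, at chr9:63747462-63748416 and 10.0 kb after the start site, had folds of 9.2 and 6.3 in siChst7 and 9.9 and 6.5 in siControl. The region at chr9:63839234-63839763, 81.4 kb before the start site, was weak in every list, with folds of 5.6 and 5.7 in siChst7 and 5.7 and 6.6 in siControl. Between these, at chr9:63793643-63794117 and 36.0 kb before the start site, lay the 1 siControl-only region of the 9 genes, with folds of 6.4 and 6.8. It makes 3.12% of the 32 regions, where 1.6% of all regions were siControl-only, and it too came apart under 50% reciprocal overlap.

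Within Smad3 a stretch of 17.3 kb (chr9:63706041-63723306) held 6 regions listed in siChst7 replicate 1 alone, with summits from 34.9 to 51.6 kb after the start site. Their folds were 4.8 to 10.4, at the 15.1 to 82.6 percentile of that list. In the same stretch siChst7 replicate 2 had 1 peak of its own, with a fold of 4.9, and the siControl lists had none. The stretch was cut at the outermost of these 6 regions, so siChst7 replicate 1 set its ends. Just outside, siChst7 replicate 1 and siControl replicate 1 shared a region at chr9:63702613-63702971, with folds of 5.6 and 4.2. On the other side siChst7 replicate 1 and siControl replicate 2 shared chr9:63724925-63725919, with folds of 9.2 and 5.0. The list of siChst7 replicate 1 is also the longest of the 4.

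Smad7 (chr18:75367365-75395935), the inhibitory Smad, carried 2 common regions that flanked its lower gene end. The region outside the gene, at chr18:75362735-75364276 and 3.6 kb from that end, had folds of 5.3 and 5.7 in siChst7 and 9.2 and 7.7 in siControl. The region inside the gene, at chr18:75375123-75376231 and 8.2 kb from the end, had 5.1 and 5.5 in siChst7 and 8.4 and 7.2 in siControl. These peaks stood at the 21.0 to 30.4 percentile of the siChst7 lists and the 60.1 to 76.7 percentile of the siControl lists, so they were in the lower part of both siChst7 lists and the upper part of both siControl lists. The summits of the 4 lists were spread over 1034 bp in the outer region and 456 bp in the inner one, so the joined peaks need not mark the same site. Neither region stayed in all 4 lists with summit windows (3 lists for the outer, 2 for the inner) or at equal list length (3 lists each), and with 50% reciprocal overlap the outer one was in 2. Smad7 also had 4 regions in siChst7 replicate 1 alone and 1 in siControl replicate 2 alone. Skil (chr3:31095058-31122923), the co-repressor, had none, and the closest region of all 4 lists, given to the kinase gene Prkci, lay 72.0 kb away with folds of 10.2 and 6.7 in siChst7 and 7.2 and 12.4 in siControl.

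**Figure D3:**
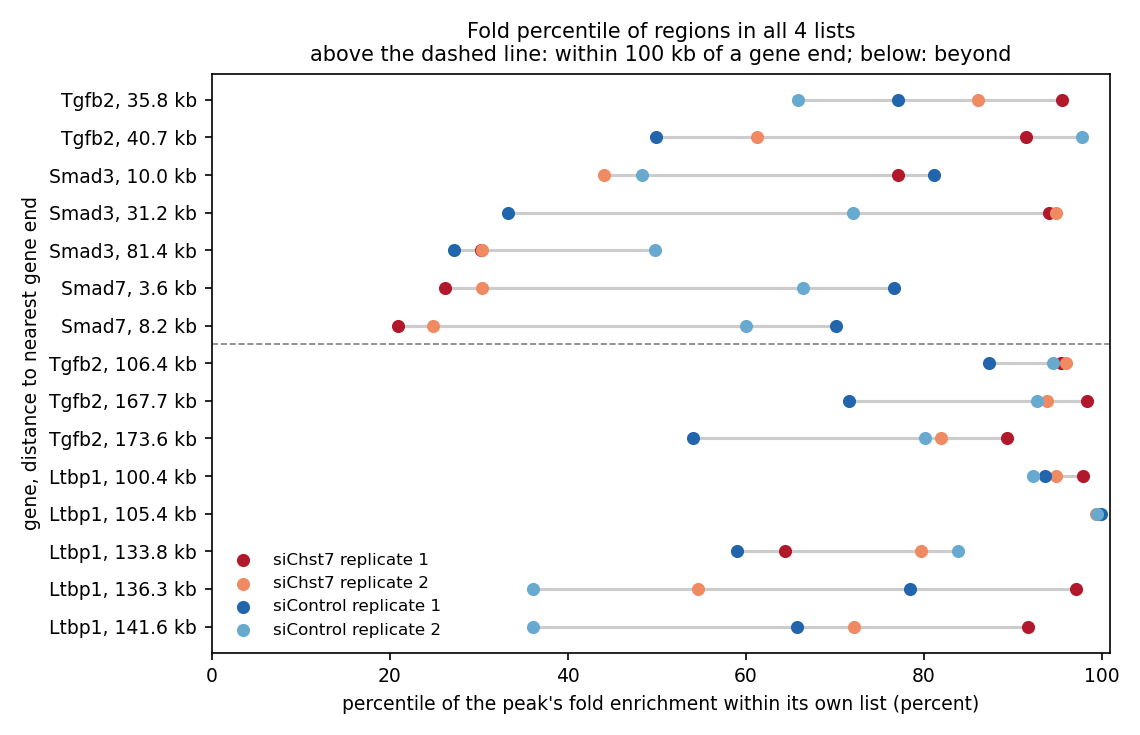
Percentile of each peak's fold enrichment within its own list (horizontal axis, percent) for the regions of all 4 lists at TGF-beta genes, with 1 row for each region and 1 point for each siChst7 or siControl library. Rows above the dashed line are the 7 regions that the 100 kb rule takes in, and rows below it are the 8 regions farther out. The Smad7 points of siChst7 lie left of those of siControl, the Smad3 points at 31.2 kb lie the other way, in lists that differ in length, and the Ltbp1 points at 105.4 kb lie between 99.4 and 99.9.

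Most of the 32 regions were in a single list. In all, 7 (21.9%) were in all 4 lists, against 22% of all regions, and 18 (56.2%) were in 1 list, against 46.7% of all regions. Those of siChst7 replicate 1 alone made up 15 of the 32 (46.9%), against 29.2% of all regions. The 7 common regions were wide, with a median of 1330 bp against 925 bp for all common regions. The strongest summits of the lists were also spread further, by a median of 456 bp against 186 bp for all common regions. Their median fold percentile was 77.1 and 44.1 in the siChst7 lists and 70.2 and 65.9 in the siControl lists, against 83.4 and 66.3 (siChst7) and 74.2 and 70.9 (siControl) for all common regions.

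The regions lay far from gene ends. Their median distance to the nearest end was 31.9 kb, against 13.1 kb for all regions given to a gene, and 2 of the 32 lay within 1 kb. Of the 32, Smad3 held 15 and Tgfb2 5. The genome nearest to these genes measured 210 and 192.6 kb, against a median of 46.4 kb over all genes. The Smad7 regions lay 2.6 to 24.9 kb from an end. Inside their gene were 20 of 32 (62.5%), against 51.8% of all regions given to a gene, and 13 of the 20 were in Smad3. No exon annotation was used, so positions inside a gene are not split further.

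The TGF-beta genes took a slightly larger share of the regions in each siChst7 library than in each siControl library, a difference the design cannot call. In siChst7 27 of 10055 regions (0.269%, exact Clopper-Pearson 95% interval 0.177 to 0.390) and 11 of 4612 (0.239%, 0.119 to 0.426) belonged to the 9 genes. In siControl these were 11 of 6331 (0.174%, 0.087 to 0.311) and 12 of 5658 (0.212%, 0.110 to 0.370). The intervals cover counting error only, with regions taken as independent, and each overlaps the others. Of the 27 regions in siChst7 replicate 1, 12 were in Smad3, so the intervals may be too narrow. The mean was 0.254% ± 0.021 in siChst7 and 0.193% ± 0.027 in siControl (SD, n = 2 each). The difference of 0.061 percentage points had a two-sided exact permutation p of 0.333, the smallest that 2 against 2 libraries allow. The log2 number of regions averaged 4.11 ± 0.92 in siChst7 and 3.52 ± 0.09 in siControl (SD, n = 2 each), and the groups overlapped (two-sided exact permutation p = 1). With assignment within 20 kb the difference in share was 0.012 percentage points (exact permutation p = 0.667), with no limit on distance 0.027 (exact permutation p = 0.667), and with 50% reciprocal overlap or summit windows 0.098 (exact permutation p = 0.333). Without siChst7 replicate 1 the log2 difference in number was 0.06 and without siChst7 replicate 2 it was 1.23, against 0.58 with all 4 libraries.

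Of the 5 genes with a region, 1, Smad3, had a higher share in both siChst7 lists than in either siControl list, and 0 had a lower one. The Smad3 shares were 0.119% and 0.130% in siChst7 and 0.111% and 0.088% in siControl. Of all genes with a region, 11.8% had a higher share in both siChst7 lists and 11.1% a lower one. The 5 genes outside the list whose numbers of regions in the 4 libraries were closest to those of Smad3 were Aff1, Tomm20, Cubn, Sgk1 and Cd44, with a summed absolute difference of 3 or 4 regions over the 4 libraries. They had 4, 3, 5, 4 and 6 common regions, where Smad3 had 3. The genome nearest to these genes measured 116 to 251 kb, against 210 kb for Smad3.

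Other genes of the pathway were read from a list of 61, of which 36 had a JUNB region in any list. Of all protein-coding genes 25.1% did. In both siChst7 libraries 19 of 61 (31.1%) had a region and in both siControl libraries 24 of 61 (39.3%), against backgrounds of 11.3% and 11% of all genes, and 17 (27.9%) had a region of all 4 lists, against 8.32%. The list was written with earlier results of these data known and was not adjusted for the length of genome nearest to a gene. By role, genes with a region in both libraries of siChst7 and of siControl numbered 5 and 8 of 12 targets, 4 and 7 of 10 latency and activation genes and 6 and 5 of 12 repression and turnover genes. They numbered 1 and 1 of 10 other ligands, 2 and 2 of 11 receptors and co-receptors, and 1 and 1 of 6 other Smads, which was Smad6. Smad2, Smad4, Smad5 and Smad9 had none in any list. Id1, Timp1, Postn, Ltbp3 and Itgb6 counted for siControl alone, with regions in siChst7 replicate 1 but 0 in siChst7 replicate 2, the shortest list. Ltbp2 also counted for siControl alone, with 0 in both siChst7 libraries. Ski counted for siChst7 alone, with 0 in siControl replicate 2. The role of repression and turnover, as listed, also counts Zfyve9, which encodes an anchor for Smads.

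**Figure D4:**
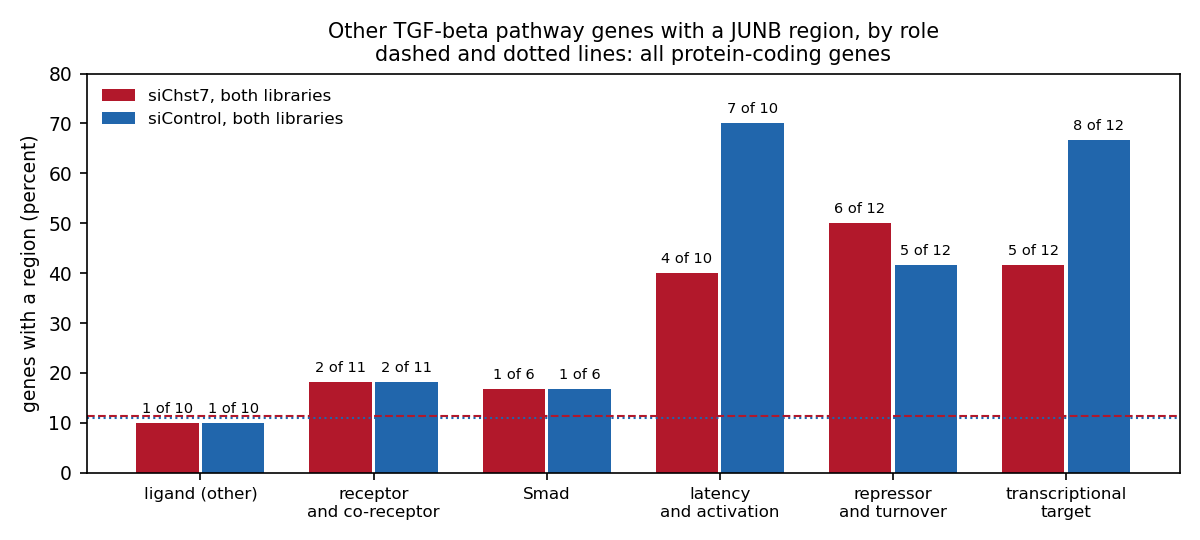
Share of the 61 other TGF-beta pathway genes, by role, that had a JUNB region in both siChst7 libraries (left bars) or both siControl libraries (right bars), in percent of the genes of that role. The lines mark the same shares over all protein-coding genes, 11.3% for siChst7 and 11% for siControl. The peak lists differ in length, and that of siChst7 replicate 2 is the shortest. Roles are those of the list, which counts Zfyve9, an anchor for Smads, under repression and turnover.

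Among targets, Id3, which encodes a helix-loop-helix inhibitor, had a common region 20.4 kb from its end, with folds of 12.7 and 13.2 in siChst7 and 16.6 and 7.7 in siControl. Cdkn2b, which encodes the cell cycle inhibitor p15, had one at 3.8 kb, with 11.2 and 11.4 in siChst7 and 10.2 and 9.8 in siControl. The collagen gene Col1a1 had one at 19.7 kb, with 10.4 and 7.6 in siChst7 and 11.9 and 8.8 in siControl. In each of these 3 regions the folds of every list lay between 7.6 and 16.6.

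Among genes of latency and activation, Thbs1 encodes thrombospondin 1, an activator of latent TGF-beta. It had a common region 1.1 kb from its end, with folds of 12.2 and 9.9 in siChst7 and 12.1 and 12.2 in siControl. Itgav, an integrin chain that can release active ligand, had 2 common regions, the better with 13.0 and 9.8 in siChst7 and 17.2 and 18.3 in siControl. Among genes of repression and turnover, Pmepa1, which encodes a membrane inhibitor of Smad activation, had 3 common regions inside the gene, the best with 12.1 and 11.4 in siChst7 and 7.7 and 10.8 in siControl. Smurf1, a ubiquitin ligase for Smads and receptors, had 11.4 and 8.3 in siChst7 and 8.9 and 10.0 in siControl. Zfyve9, which the list counts under this role, encodes SARA, an anchor that presents Smads to the receptor and not a repressor. It had 13.3 and 8.2 in siChst7 and 9.5 and 11.6 in siControl. Inhbb, an activin subunit and the 1 other ligand gene with a common region, had 10.4 and 11.4 in siChst7 and 9.7 and 9.9 in siControl.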

How the data were processed

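CUT&RUN for JUNB was analysed in 2 siChst7 and 2 siControl libraries, and 3 IgG libraries were not used here. Bowtie2, MACS3 and mm10 are named in the submitters' processing notes, without versions or settings. Those notes leave out whether IgG served as peak-calling control. Names inside the deposited files show that each library has its own list. The deposited lists give for each peak a score, a fold enrichment (a ratio), a p-value and q-value as −log10, and a summit.

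Peaks sharing 1 bp or more were joined across lists, and each region's median summit was given to the nearest end of a protein-coding gene of RefSeq GRCm38.p6 within 100 kb. Coordinates are 1-based. A region was called common when all 4 lists had it, and group-only when both lists of a group and neither of the other had it. Read counts were not used, so where a list lacks a region there may be signal under its threshold. Library labels were permuted exactly (two-sided) for shares and numbers. Other values are descriptions. All 9 members and 61 pathway genes matched the RefSeq table. Members and lists were chosen with earlier results of these data known. The 9 genes were all named, with each common or group-only region, and pathway genes by the 10 best mean fold percentiles of their best common region. The values of 1 of these 10 are not reported here. The joining, classes, assignment and permutation were tested on simulated peak lists. Software was Python 3.11.15, NumPy 2.4.6, pandas 2.3.3, SciPy 1.17.1 and Matplotlib 3.10.9.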

Additional observations from a re-analysis of the deposited data

How the results depend on the processing

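The direction of the difference in share and in log2 number held in 13 of 13 alternatives each, none of which can pass at this size. The 7 common regions became 2 with summit windows of 100 bp on each side, 4 at equal list length and 3 with gene ends within 20 kb. They became 15 with no limit on distance, an alternative chosen after seeing the data. Of the 7, the Smad3 region at 31.2 kb alone was in 4 lists under reciprocal overlap, summit windows and equal list length. The other 6 each fell to 2 or 3 lists in at least 1 of these: both Tgfb2 regions and Smad3 at 10.0 kb with summit windows, Smad3 at 81.4 kb with reciprocal overlap and equal length, Smad7 at 8.2 kb with summit windows and equal length, and Smad7 at 3.6 kb in all 3. The siChst7-only count of 1 became 2 with summit windows, 2 at equal list length, 0 with gene ends within 20 kb and 0 with gene bodies and 5 kb on each side. The siControl-only count of 1 became 0 with 50% reciprocal overlap, 0 with gene ends within 20 kb and 0 with gene bodies and 5 kb on each side. The Tgfb2 region at 54.3 kb was in 1 list under 50% reciprocal overlap and in 1 with summit windows, so the siChst7-only regions counted there are others, and the Smad3 region at 36.0 kb was in 1 list under 50% reciprocal overlap. Leaving out 1 library gave siChst7-only counts of 1 to 16, the highest without siChst7 replicate 2, siControl-only counts of 1 to 3, and 3 to 5 genes with a region in the remaining or both siChst7 lists. A group left with 1 library needs that library alone. With the replicate number as a block the differences were 0.061 percentage points (exact sign permutation p = 0.5, the smallest 2 pairs allow) and 0.585 on the log2 scale (exact sign permutation p = 1). The correlation over 12655 regions between the deviations of libraries with the same number was −0.03. It was taken over calls of listed or not listed, so it cannot show whether such libraries shared a culture or batch. The lists bound what can be seen, since read depth is unknown and weak regions end at the lists' thresholds.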

Other observations

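The 61 other pathway genes owned 106 regions, of which 25 (23.6%) were common to all 4 lists, against 22% of all regions. Of the 106, 4 (3.77%) were siChst7-only, against 3.88% of all regions, and 3 (2.83%) were siControl-only, against 1.6% of all regions. Ccn2, which encodes the matricellular protein CTGF, had one of each. The siChst7-only region at chr10:24595244-24595762, inside the gene and 0.2 kb from an end, had folds of 3.8 and 4.9. The siControl-only region at chr10:24589045-24589751, 6.1 kb from the gene, had 5.4 and 5.4. The other siChst7-only regions lay inside Itgav (folds of 6.1 and 6.7), Pmepa1 (6.6 and 5.0) and Nedd4l (3.8 and 5.2), and the other siControl-only regions inside Ltbp2 (7.5 and 6.6) and Col1a1 (5.4 and 4.1).

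Tgfbr3, which encodes the co-receptor betaglycan and was chosen after its values were seen, had 3 common regions, as many as Smad3, while Tgfbr1 and Tgfbr2 had 0. The strongest, inside Tgfbr3 at chr5:107166698-107168215 and 61.2 kb from an end, had folds of 17.5 and 8.6 in siChst7 and 8.5 and 7.0 in siControl. A second inside the gene, 89.1 kb from an end, had 9.5 and 6.7 in siChst7 and 11.4 and 8.1 in siControl. The last, 19.1 kb outside, had 8.4 and 6.0 in siChst7 and 5.5 and 8.6 in siControl.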
